A study of Mus musculus with 6 samples.

Results

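The 10 genes described here encode the smooth muscle contractile apparatus and were followed through RNA-Seq of scraped mouse small intestinal mucosa. Myh11, Acta2, Actg2, Des, Cnn1, Tagln, Mylk, Myl9, Synpo2 and Smtn were chosen by name and were found once each among the 38561 Ensembl genes of the deposited count tables. The series holds 6 polyA RNA libraries, 3 labelled Rbm47_IKO and 3 labelled wt, all from C57BL/6J mice aged 8 to 12 weeks. Rbm47_IKO mice carry a deletion of the RNA-binding protein gene Rbm47 that is driven in the intestinal epithelium by a Villin promoter-driven Cre, so that muscle lies outside the cells the Cre is meant to reach. The labels call the controls wt, whereas the study's methods name Rbm47 fl/fl mice as its controls. Each library is a pool of RNA, from 3 mice of both sexes by the series' design text and from up to 1 more by the study's methods, so that single animals cannot be seen. How deep the scraping went was not given in the sources used here.

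Smooth muscle contracts when calcium activates myosin light chain kinase, which phosphorylates the regulatory light chain and lets smooth muscle myosin pull on actin filaments. In the intestine such muscle makes up the circular and longitudinal layers of the wall, the thin muscularis mucosae at the base of the mucosa, strands inside the villi and the coats of blood vessels. A scraping of mucosa can therefore hold different amounts of muscle, and the level of these genes in a scraping is a measure of it. In bulk RNA, fewer muscle cells and less of each mRNA per cell cannot be told apart.

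The pools had 31560320 to 38951830 counts, and the lowest count of any of the 10 genes in any pool was 126, so that counting error was small beside the differences described here. Rbm47 itself was not lower in the pools labelled Rbm47_IKO. It had 602.7, 624.6 and 619.8 counts per 1000000, normalized by the TMM method of edgeR (CPM), in those pools against 459.8, 449.9 and 472.1 in wt, 0.42 ± 0.10 (log2 fold change ± SE, edgeR adjusted p = 0.0751). These counts cover the whole gene and do not show the deleted part alone. Because the counts of the targeted gene went against the labels, the groups are called by their labels throughout, and a direction between them is a direction between labels. Rbm47 ran over 1.39-fold from the lowest to the highest of the 6 pools, against a median of 1.71-fold over all genes tested. Its pools did not overlap between the labels. The labels accounted for 98.5% of the sum of squares of its log2 CPM, against a median of 20.9% over all genes tested.

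The defining genes of smooth muscle were present in all 6 pools, in amounts that set 2 pools apart from the other 4. The summed CPM of the 10 genes was 880.5, 1194 and 5017 in Rbm47_IKO pools 1, 2 and 3, and 381.1, 3955 and 726.3 in wt pools 1, 2 and 3. Rbm47_IKO pool 3 thus held 5.70-fold the level of pool 1 and 4.20-fold that of pool 2. Among the wt pools, pool 2 held 10.4-fold the level of pool 1 and 5.45-fold that of pool 3. Mylk, which ran over 4.03-fold only, gave 268.5 of the 381.1 CPM in wt pool 1 and 754 of the 3955 CPM in wt pool 2. The folds of the sum are therefore smaller than those of most of the 10 genes, whose median over all 6 pools was 34.2. The highest pool of each label differed from the other by 1.27-fold only. Each label contributed 1 such pool, and the means per label were 2364 ± 2303 CPM (SD, n = 3) for Rbm47_IKO and 1687 ± 1971 CPM (SD, n = 3) for wt. The difference in means, 1.4-fold, was smaller than either SD.

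**Figure D1:**
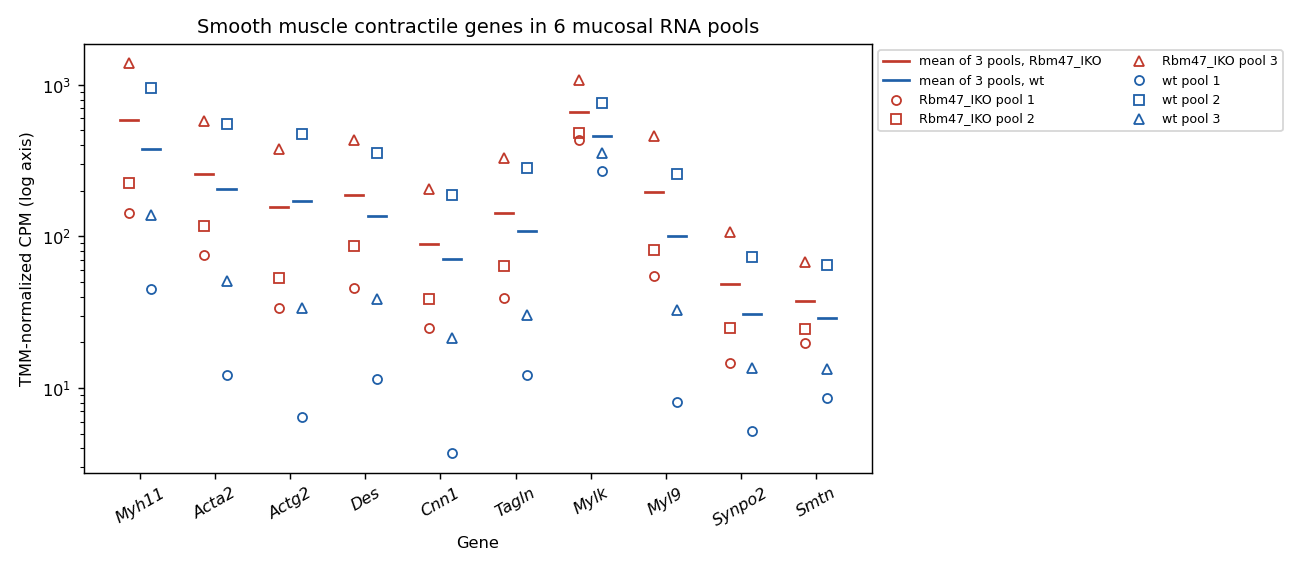
TMM-normalized CPM of the 10 genes (log axis) in each of the 6 pools, Rbm47_IKO in red and wt in blue, with the mean of 3 pools as a bar. Rbm47_IKO pool 3 and wt pool 2 lie above the other 4 pools for all 10 genes, and wt pool 1 lies lowest for all 10.

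Short sequences are shown for the 2 smooth muscle actins, since they are the closest relatives among the 10 genes and differed in how they varied between pools. Over 1131 aligned coding bases of the GENCODE M21 transcripts, Acta2 and Actg2 were identical at 955 (84.4%), and Acta2 was 1 codon longer. A stretch of 30 coding bases is given for each, bases 31 to 60 of Acta2 and 28 to 57 of Actg2, with the 4 bases at which they differ in capitals:
Acta2: gtgtgCgacaatggctctggGctCtgTaag
Actg2: gtgtgTgacaatggctctggCctGtgCaag
Of the distinct stretches of 50 bases in the transcripts of Acta2, 0.326% were also present in transcripts of other genes, at least 3 predicted genes among them. None of the stretches of Actg2 were. Across the 10 genes the shared part was highest for Myh11, at 0.34%, so that reads of these genes could be placed almost throughout at that length. The read length was not given in the sources used here.

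The filament genes were read first. Myh11 (ENSMUSG00000018830, chromosome 16, 14194527 to 14291408, GRCm38), which encodes the smooth muscle myosin heavy chain, had 142.9, 226.4 and 1383 CPM in Rbm47_IKO pools 1 to 3 and 44.82, 949.8 and 138.2 CPM in wt pools 1 to 3. The pools of the 2 labels were interleaved, with Rbm47_IKO pool 3 and wt pool 2 far above the rest and wt pool 1 below all others. Its log2 fold change was 0.63 ± 1.17 (SE, edgeR adjusted p = 0.869).

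Acta2 (ENSMUSG00000035783, chromosome 19, 34241090 to 34255336) encodes the alpha actin of smooth muscle, which vessel walls and myofibroblasts also make. It had 74.99, 117.4 and 576 CPM in Rbm47_IKO pools 1 to 3 and 12.15, 550 and 50.74 CPM in wt pools 1 to 3. Actg2 (ENSMUSG00000059430, chromosome 6, 83512905 to 83536265) encodes the gamma actin typical of visceral muscle. It had 33.77, 52.78 and 378.7 CPM in Rbm47_IKO pools 1 to 3 and 6.411, 475.7 and 33.92 CPM in wt pools 1 to 3. Actg2 was the only one of the 10 genes with its highest level in wt pool 2, and the only one with an edgeR log2 fold change below 0, -0.15 ± 1.42 (SE, edgeR adjusted p = 0.977). With limma-voom on the same pools its value was 0.894. That of Acta2 was 0.33 ± 1.27 (SE, edgeR adjusted p = 0.943).

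Myl9 (ENSMUSG00000067818, chromosome 2, 156775420 to 156781658) encodes the regulatory light chain that the kinase phosphorylates. It had 54.42, 81.24 and 457.5 CPM in Rbm47_IKO pools 1 to 3 against 8.117, 259.5 and 32.74 CPM in wt pools 1 to 3. Its log2 fold change with edgeR, 0.98 ± 1.22 (SE, edgeR adjusted p = 0.787), was the largest among the 10 genes and smaller than its standard error. On the same pools it was 1.62 ± 1.24 (SE) with limma-voom and 1.89 ± 1.25 (SE) with the pool number as a block in edgeR. Neither passed the threshold. Mylk (ENSMUSG00000022836, chromosome 16, 34745210 to 35002420), the kinase gene, had the smallest spread over the pools among the 10 genes. It had 430.9, 478.1 and 1083 CPM in Rbm47_IKO pools 1 to 3 and 268.5, 754 and 353.6 CPM in wt pools 1 to 3, 4.03-fold from the lowest pool to the highest. The Mylk gene also gives rise to a longer non-muscle kinase and to telokin, a short protein of the same locus, and gene counts do not separate them.

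The genes that bind or anchor the filaments followed the same order of pools. Des (ENSMUSG00000026208, chromosome 1, 75360329 to 75368579), the intermediate filament protein desmin, had 45.49, 86.34 and 432.6 CPM in Rbm47_IKO pools 1 to 3 and 11.53, 356.4 and 38.75 CPM in wt. Cnn1 (ENSMUSG00000001349, chromosome 9, 22099281 to 22109630), calponin, an actin-binding inhibitor of the myosin ATPase, had 24.9, 38.68 and 205.1 CPM against 3.706, 187.5 and 21.24 CPM. Tagln (ENSMUSG00000032085, chromosome 9, 45929628 to 45936058), the actin-bundling protein SM22, had 38.94, 64.03 and 326.8 CPM against 12.12, 283.4 and 30.24 CPM. In each of these genes the highest wt pool lay above the lower 2 Rbm47_IKO pools, and the labels overlapped.

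Synpo2 and Smtn were the weakest of the 10. Synpo2 (ENSMUSG00000050315, chromosome 3, 123076519 to 123236147), which encodes an actin-binding protein of muscle Z-bodies and Z-discs, had 14.53, 24.9 and 106.2 CPM in Rbm47_IKO pools 1 to 3 and 5.205, 73.36 and 13.61 CPM in wt. Smtn (ENSMUSG00000020439, chromosome 11, 3517523 to 3540612), smoothelin, a protein of contractile smooth muscle cells, had 19.76, 24.37 and 68.18 CPM against 8.588, 65.16 and 13.25 CPM. Both again peaked in Rbm47_IKO pool 3 and wt pool 2.

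The spread within a label was far larger than that of most genes. From lowest to highest pool among the Rbm47_IKO pools, the 10 genes ranged over 2.51-fold (Mylk) to 11.2-fold (Actg2), and among the wt pools over 2.81-fold (Mylk) to 74.2-fold (Actg2). Over all 6 pools the median of the 10 folds was 34.2, against 1.71 over the 16425 genes tested. The SD of log2 CPM within labels was 0.75 to 2.57 with a median of 2.06, against a median of 0.24 over all genes tested. By this SD, Actg2 ranked 3, Cnn1 7, Acta2 11, Des 22, Myl9 24, Tagln 37, Myh11 39 and Synpo2 129 among the 16425, and these 8 genes lay in the top 1%. Smtn ranked 415 and Mylk 1549. The labels accounted for 4.38% (Actg2) to 18% (Myl9) of the sum of squares of log2 CPM, with a median of 10.1%, against a median of 20.9% over all genes tested.

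**Figure D2:**
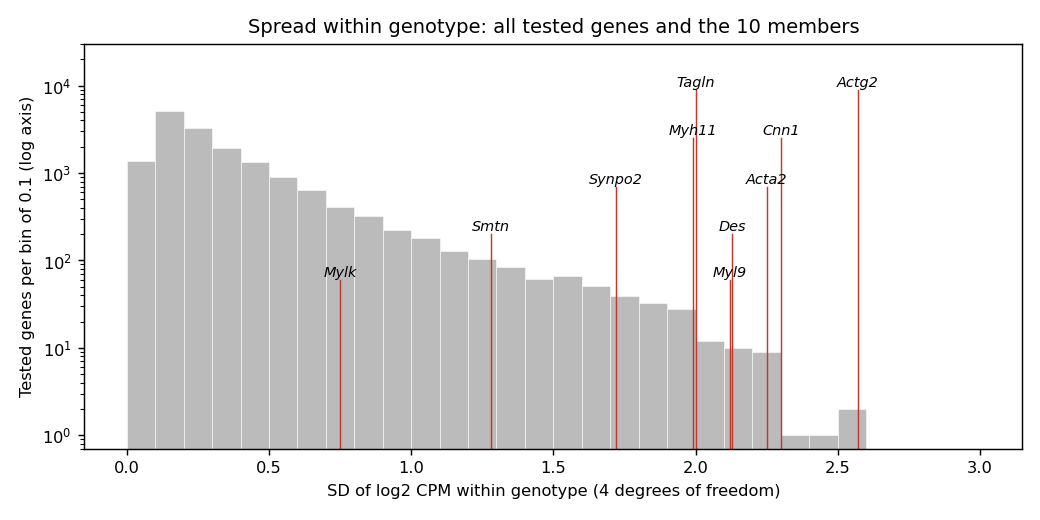
Number of tested genes (log axis) by the SD of their log2 CPM within label, in bins of 0.1, with the 10 genes marked by red lines. The median over all genes tested was 0.24, and the 10 genes lie between 0.75 (Mylk) and 2.57 (Actg2).

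Of the 10 genes, 9 ordered the 6 pools alike, from Rbm47_IKO pool 3 through wt pool 2, Rbm47_IKO pool 2, Rbm47_IKO pool 1 and wt pool 3 down to wt pool 1. Actg2 was the exception, with the first and second places exchanged and wt pool 3 just above Rbm47_IKO pool 1. This order was found in 1.65% of the genes tested, and Rbm47_IKO pool 3 and wt pool 2 were the 2 highest pools in 12.3% of them. As a description, Pearson's r of the log2 CPM of each gene with the mean of the other 9 over the 6 pools was 0.9755 (Mylk) to 0.9990 (Des). Without the 2 pools farthest from the median, Rbm47_IKO pool 3 and wt pool 2, r was 0.9586 (Smtn) to 0.9983 (Acta2). These points share their libraries and depth.

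Levels of different genes were compared per kilobase of the deposited gene length. On this scale, CPM per kb averaged over 6 pools, Acta2 was highest at 129.3 ± 146.1 (SD), followed by Myl9 at 128.2 ± 151.2, Actg2 at 104.7 ± 132.5, Tagln at 79.39 ± 88.55 and Myh11 at 72.5 ± 83.13. Mylk followed at 55.26 ± 29.93, Des at 43.11 ± 48.85, Cnn1 at 33.86 ± 38.34, Smtn at 7.584 ± 6.047 and Synpo2 at 4.619 ± 4.743. Every SD but those of Mylk and Smtn exceeded its mean, and neighbours in this order differed by less than the SD of the higher gene. Within pools, Des was above Cnn1 and Smtn above Synpo2 in all 6, whereas Acta2 was above Myl9 in 2 of 6 and Myh11 above Mylk in 2 of 6.

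The make-up of the group changed with its amount. Mylk made up 40.1% of the summed CPM per kb in wt pool 1, where the sum was lowest, and 19.7%, 18.6% and 13.9% in wt pool 3 and Rbm47_IKO pools 1 and 2. In the highest pools it made up 5.19% (wt pool 2) and 6.23% (Rbm47_IKO pool 3). Smtn moved in the same direction, from 2.97% in wt pool 1 to 1.04% and 0.91% in the highest pools. The ratio of Actg2 to Acta2, per kb, was 0.513, 0.513 and 0.75 in Rbm47_IKO pools 1 to 3 and 0.602, 0.986 and 0.762 in wt pools 1 to 3. It was highest in wt pool 2 and lowest in Rbm47_IKO pools 1 and 2, and the labels overlapped. Tagln, at 10.8% to 12.5%, and Myh11, at 9.45% to 12.2% of the sum, kept a like share in all pools.

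**Figure D3:**
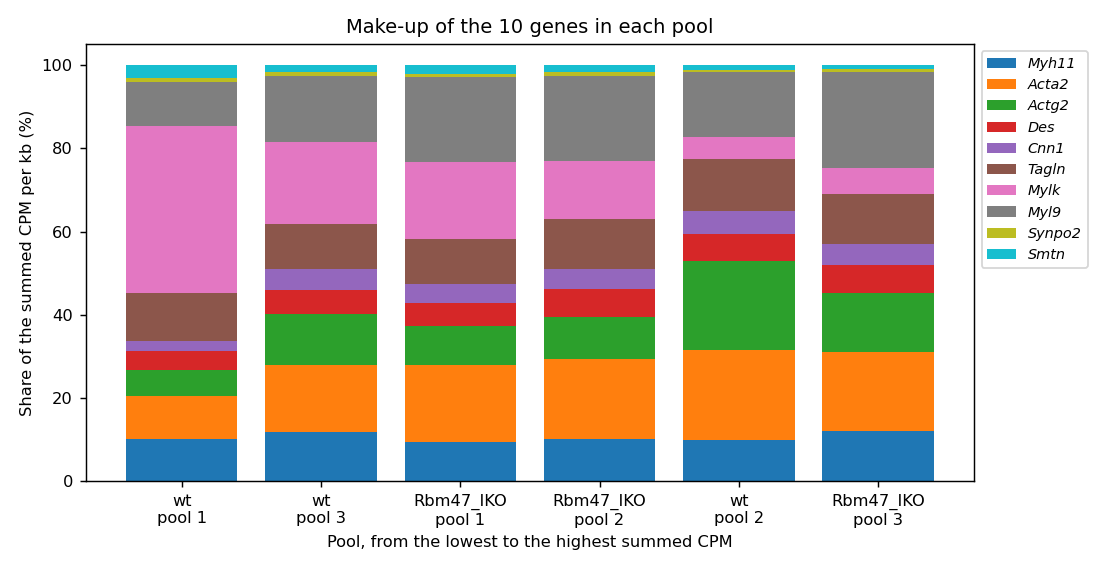
Share of each of the 10 genes in their summed CPM per kb (%), 1 bar per pool, ordered from the lowest to the highest summed CPM. The share of Mylk falls from 40.1% in wt pool 1 to 5.19% in wt pool 2 and 6.23% in Rbm47_IKO pool 3.

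No difference between the labels passed the test for any of the 10 genes. Across all genes, 443 of 16425 (2.7%) were called by edgeR at an adjusted p of at most 0.05, against 0 of the 10, and 0 of the 10 had an unadjusted p under 0.05, against 16.8% of all genes. Limma-voom called 0 of the 10, against 431 of 16425 genes (2.62%), and DESeq2 called 0 of the 9 for which it gave an adjusted p (none for Actg2), against 1243 of 14818 genes (8.39%). Of the 10 log2 fold changes 9 were above 0, with a median of 0.44 against -0.00586 over all genes tested. With limma-voom all 10 were above 0 and their median was 0.984, and with the pool number as a block in edgeR it was 1.26. The edgeR adjusted p without the block ranged from 0.657 (Mylk) to 0.977 (Actg2). The values of the genes not yet given were 0.47 for Des, 0.34 for Cnn1, 0.40 for Tagln, 0.53 for Mylk, 0.66 for Synpo2 and 0.37 for Smtn, with standard errors of 1.23, 1.27, 1.18, 0.47, 1.01 and 0.78. The standard error was above 1 on the log2 scale, that is above 2-fold, for 8 of the 10.

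The direction changed with the pools left out. Without Rbm47_IKO pool 3 all 10 log2 fold changes were below 0, with a median of -1.03. Without wt pool 2 all 10 were above 0, with a median of 2.80, and all 10 had an unadjusted p under 0.05, while 0 passed the adjusted threshold (edgeR adjusted p = 0.135 to 0.215). Over all genes of that fit, 3667 of 16725 (21.9%) had an unadjusted p under 0.05 and 431 (2.58%) were called. Without both pools all 10 were again above 0, with a median of 1.18, and 7 had an unadjusted p under 0.05, against 3483 of 16335 genes (21.3%), of which 327 (2%) were called. In that fit of 2 pools against 2, Smtn had the lowest adjusted p, with a log2 fold change of 1.0 ± 0.24 (SE, edgeR adjusted p = 0.074), and Myl9 the largest change, 1.72 ± 0.54 (SE, edgeR adjusted p = 0.138). Without wt pool 1, 4 of the 10 log2 fold changes were above 0 (median -0.06), and without wt pool 3, 6 were (median 0.03). Without Rbm47_IKO pool 3 and wt pool 2, the remaining pools did not overlap in summed CPM, with 880.5 and 1194 in Rbm47_IKO against 381.1 and 726.3 in wt. The 2 omitted pools were the highest on this same sum and were chosen with earlier results known. No conclusion is therefore drawn from the lack of overlap.

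**Figure D4:**
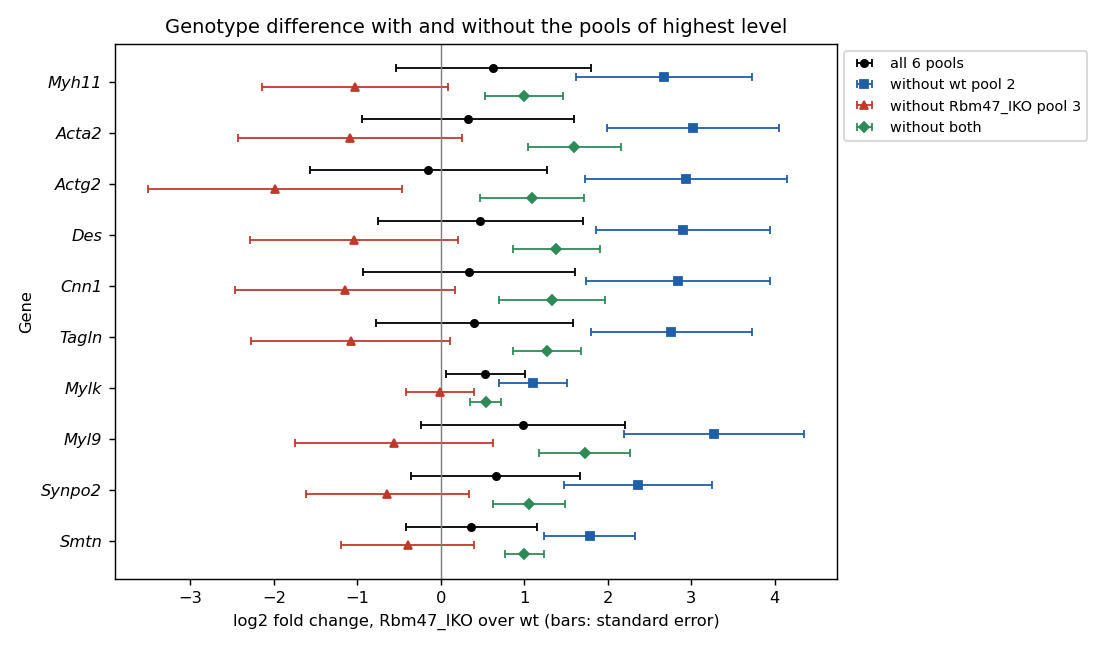
Log2 fold change of the 10 genes, Rbm47_IKO over wt, with its standard error, for all 6 pools and without wt pool 2, without Rbm47_IKO pool 3 and without both. All 10 points lie above 0 without wt pool 2 and below 0 without Rbm47_IKO pool 3.

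Promoter windows were examined because the 10 genes moved together. The CArG box, the 10-letter site bound by serum response factor, was searched in the RefSeq windows of 300 bases (GRCm38.p6, 250 bases before to 50 after the start of the gene), of which 7 belonged to the 10 genes. The site reads the same on both strands. It was present in 1 of the 7, that of Myl9, against 1.63% of all 32851 windows. A form with 1 C or G among the 6 A or T letters of its core was present in 2 of the 7, those of Myl9 and Acta2, against 8.5% of all windows. The matches are given with their flanks, from 5′ to 3′ on the strand of the gene, with the site in capitals. They begin 161 and 99 bases before the start site of Myl9 (chr2:156775293-156775322 and chr2:156775355-156775384, plus strand) and 84 and 34 bases before that of Acta2 (chr19:34255438-34255467 and chr19:34255388-34255417, minus strand):
Myl9, CArG box: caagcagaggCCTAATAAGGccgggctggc
Myl9, 1 letter changed: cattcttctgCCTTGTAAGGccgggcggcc
Acta2, 1 letter changed: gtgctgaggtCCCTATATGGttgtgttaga
Acta2, 1 letter changed: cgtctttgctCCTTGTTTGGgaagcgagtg
The windows of Des, Cnn1, Mylk, Synpo2 and Smtn held neither form, which says only that these letters are not in these windows. Myh11, Actg2 and Tagln had no window and were not searched.

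Transcription regulators of muscle were split between genes that followed the pools and genes that did not. Rbm47_IKO pool 3 and wt pool 2 were the 2 highest in 4 of 7, Myocd, Foxf1, Foxf2 and Nkx2-3. From lowest to highest pool, Foxf1 ran over 8.15-fold, Foxf2 over 3.68-fold and Nkx2-3 over 3.71-fold. Of 7 tested, 0 passed with edgeR or DESeq2, which called 2.7% and 8.39% of all genes. An unadjusted edgeR p under 0.05 was found for 2, Srf and Mrtfa, against 16.8% of all genes. Myocd, the smooth muscle coactivator of serum response factor, had 1.646, 2.218 and 8.576 CPM in Rbm47_IKO pools 1 to 3 and 0.147, 5.929 and 0.9055 CPM in wt pools 1 to 3. It ran over 58.3-fold, from 5 counts in wt pool 1, and had the same order of pools as the 9 genes. Srf, which encodes serum response factor and is made by most cells, varied over 1.88-fold, with 81.28, 79 and 78.74 CPM against 43.29, 69.64 and 61.36 CPM. Its log2 fold change was 0.46 ± 0.17 (SE, edgeR adjusted p = 0.229). Mrtfa and Mrtfb, coactivators found in many cells, varied over 1.32-fold and 1.18-fold.

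Other genes of contraction were counted from a list of 25 that spans filament proteins, phosphatase subunits, ion channels and nitric oxide signalling. Of the 25, 0 passed with edgeR, which called 2.7% of all genes. An unadjusted p under 0.05 was found for 3, against 16.8% of all genes, and the median log2 fold change was 0.32. DESeq2 called 2, Atp2a2 higher and Rock1 lower, where it called 8.39% of all genes. Rbm47_IKO pool 3 and wt pool 2 were the 2 highest in 17 of the 25. Tpm2, a tropomyosin of muscle, had 40.73, 63.58 and 326.7 CPM in Rbm47_IKO pools 1 to 3 and 9.793, 212.9 and 33.26 CPM in wt. Lmod1, which nucleates actin filaments in smooth muscle, ran over 24.6-fold, Cald1, caldesmon, over 14.7-fold, and Kcnmb1, a subunit of the calcium-activated potassium channel, over 19.5-fold. In the same list Ppp1cb ran over 1.14-fold, Rhoa over 1.32-fold and Rock2 over 1.34-fold. Tpm1 and Itpr1 ran over 2.74-fold and 2.35-fold, with Rbm47_IKO pool 3 and wt pool 2 highest for both.

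Among 15 genes of muscle adhesion and scaffold, 0 passed with edgeR, DESeq2 or limma-voom, which called 2.7%, 8.39% and 2.62% of all genes. Of the 15, 0 had an unadjusted edgeR p under 0.05, against 16.8% of all genes. The median log2 fold change was 0.10, and the same 2 pools were highest in 12 of 15. Flna, the actin cross-linker filamin A, had 169.8, 279.8 and 1286 CPM in Rbm47_IKO pools 1 to 3 against 68.7, 1052 and 152 CPM in wt. Synm, the intermediate filament protein synemin, ran over 28.3-fold and Pdlim3, a Z-disc protein, over 40.2-fold, while Ldb3, another Z-disc protein, ran over 1.41-fold.

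Most non-muscle counterparts of the 10 genes did not share this spread. The widest, Vim, Cnn3 and Myh10, ran over 4.15-fold, 3.88-fold and 3.08-fold, near the 4.03-fold of Mylk. Over 12 non-muscle paralogs the median fold from lowest to highest pool was 1.62, and the 2 pools were highest in 2 of 12. Myh9, a non-muscle myosin heavy chain, had 1058, 1026 and 883.6 CPM in Rbm47_IKO pools 1 to 3 and 815, 862.8 and 925.8 CPM in wt. Actb, cytoplasmic beta actin, had 8984, 10505 and 8182 CPM against 6676, 8698 and 8115 CPM. Vim, the mesenchymal counterpart of desmin, was 1 of the 2 that did follow, with 12.88, 26.75 and 47.41 CPM against 16.88, 53.52 and 15.23 CPM. None of the 12 passed with edgeR, which called 2.7% of all genes. An unadjusted p under 0.05 was found for 3, against 16.8% of all genes. DESeq2, with 8.39% of all genes called, called 2 higher, Myh10 and Synpo. EdgeR called Cnn3 and Myh10 higher without wt pool 2 (2.58% of all genes called) and also without both that pool and Rbm47_IKO pool 3 (2% called). Among 12 genes of striated muscle, the skeletal myosin heavy chains Myh1 and Myh4 had no count in any pool and Myh2 at most 3 counts. Of the 12, 4 passed the filter on low counts, and edgeR called 0 of these, against 2.7% of all genes. An unadjusted p under 0.05 was found for 2 of the 4 (Acta1 and Ttn), against 16.8% of all genes. Ckm, muscle creatine kinase, ran from 0.08823 CPM (3 counts) in wt pool 1 to 11.58 CPM in Rbm47_IKO pool 3. Tnnt2, the cardiac form of troponin T, had 1.011, 1.531 and 7.351 CPM in Rbm47_IKO pools 1 to 3 and 0.5588, 12.38 and 1.098 CPM in wt pools 1 to 3, so that the same 2 pools were highest. Ttn, the giant sarcomere protein titin, had 5.084 to 10.15 CPM and did not follow that order.

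The 10 genes named next were the nearest to the group from outside it by Pearson's r of log2 CPM with the mean of the 10 members over 6 pools, among 13479 genes with a mean CPM of at least 1. They were Dact3 (0.9998), Chrm2 (0.9993), Adamtsl3 (0.9990), Serpine2 (0.9987), Rbpms2 (0.9984), Tpm2 (0.9982), Mfap3l (0.9981), Pgm5 (0.9980), Stum (0.9978) and Postn (0.9974). Without Rbm47_IKO pool 3 and wt pool 2, r stayed between 0.9918 (Pgm5) and 0.9998 (Tpm2). Chrm2, the muscarinic receptor M2 that receives acetylcholine on visceral muscle, had 5.142, 7.789 and 40.06 CPM in Rbm47_IKO pools 1 to 3 and 1.412, 34.39 and 4.39 CPM in wt. An r of at least 0.95 was reached by 407 of the 13479 genes, whose median r was -0.0458.

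Markers of other cell types of the gut wall were set beside the muscle genes. The summed level of 6 markers of pericytes and vascular muscle ran over 17.8-fold, from 30.79 CPM in wt pool 1 to 546.7 CPM in Rbm47_IKO pool 3. Rgs5, which is typical of pericytes and also of other mural muscle, was the highest of the 6 in every pool, with 42.2, 55.45 and 447 CPM in Rbm47_IKO pools 1 to 3 against 13.65, 235.2 and 50.08 CPM in wt. The median fold of the 6 genes was 9.24, and Pdgfrb, Notch3 and Cspg4, receptors and a proteoglycan of mural cells, ran over 2.48-fold, 3.92-fold and 5.71-fold. The 9 markers of enteric neurons summed to 8.81, 10.77 and 36.02 CPM against 9.617, 33.86 and 14.46 CPM, with the same 2 pools highest in 7 of 9 and a median fold of 30.7 per gene. Ret, a receptor of enteric neuron precursors and neurons, did not follow that order, with 6.764, 8.511 and 7.546 CPM in wt pools 1 to 3 against 2.369, 3.142 and 5.85 CPM in Rbm47_IKO pools 1 to 3. Among them Nos1, the nitric oxide synthase of inhibitory motor neurons, had 0.4333, 0.6865 and 4.625 CPM against 0.147, 3.294 and 0.3567 CPM. The 6 fibroblast markers summed to 136.7, 221.5 and 333.2 CPM against 81.7, 393.9 and 133.6 CPM, and the 2 pools were highest for all 6.

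The sum of 3 markers of the mesothelium ran over 11.5-fold, in another order of pools. The sum of 3 markers of interstitial cells of Cajal ran over 2.40-fold, that of 4 glial markers, none above 1.685 CPM, over 3.98-fold, and that of 5 endothelial markers over 3.01-fold. Rbm47_IKO pool 3 and wt pool 2 had the 2 highest sums for each of these 3 lists. The 10 epithelial markers summed to 20932 CPM in Rbm47_IKO pool 3 and 21162 CPM in wt pool 2. Both sums lay within the range of 20598 to 24734 CPM of the other pools. Fabp2 alone gave 7693 and 5887 CPM of these 2 sums. Epcam (2186 CPM), Vil1 (3647 CPM), Cdh1 (805.8 CPM) and Krt8 (1823 CPM) were lowest in Rbm47_IKO pool 3, and the other epithelial markers were not. The sum of 6 leukocyte markers ran over 1.99-fold. With all 6 pools, no gene of these lists passed with edgeR, which called 2.7% of all genes. It called Ptprc lower without wt pool 2 (2.58% of all genes called) and Ret lower without Rbm47_IKO pool 3 and wt pool 2 (2% called). With all 6 pools the unadjusted edgeR p was under 0.05 for 2 of 10 epithelial, 1 of 9 neuronal and 1 of 6 leukocyte genes. Over all genes tested the share was 16.8%. DESeq2, with 8.39% of all genes called, called Cdx2 and Fabp2 higher and Ptprc and Ret lower. The part of these cell types in the levels of the 10 genes was not tested.

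**Figure D5:**
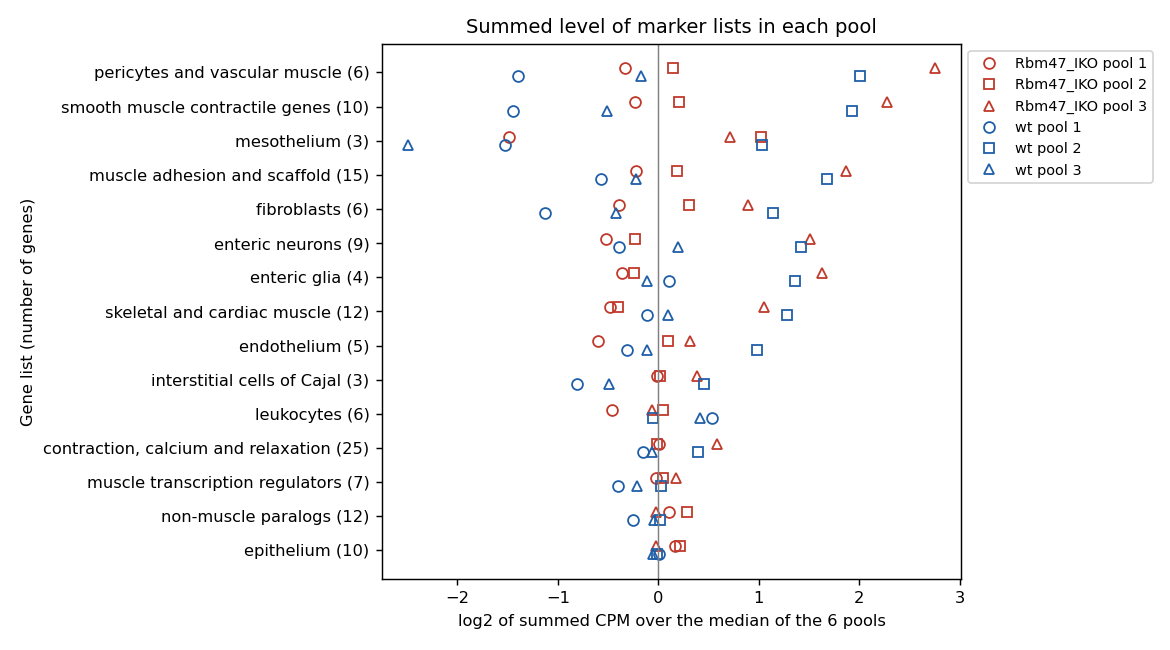
Log2 of the summed CPM of each marker list over its median in the 6 pools, with the number of genes in parentheses, ordered by the fold from lowest to highest pool. The 10 smooth muscle genes run over 13.2-fold and the 10 epithelial markers over 1.20-fold.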

How the data were processed

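For every pool the authors deposited raw counts for 38561 Ensembl genes, with a CPM column (counts scaled to 1000000) and an RPKM column (that CPM per kb of gene length). The authors' CPM and RPKM columns were recomputed from the counts, differed by less than rounding and were not used further. The submitters' processing notes name STAR 2.5.1a, Subread featureCounts 1.4.6-p5 and GRCm38. The use of strand and of reads with several positions was not given in the sources used here. Genes such as Actg1 that have many copies may be undercounted.

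Symbols came from a table of Ensembl IDs (36639 of 38561 genes matched), and positions and lengths from the deposited tables. Transcript sequences were those of GENCODE M21. Genes past filterByExpr (16425) were tested across all genes with the quasi-likelihood test of edgeR 4.0.16 in R 4.3.3 after TMM normalization, with a Benjamini-Hochberg adjusted p of 0.05 as the threshold. Standard errors (SE) were the log2 fold change over the square root of the F statistic. Log2 CPM used a prior count of 2. DESeq2 1.42.0 and limma 3.58.1 (voom) were alternatives, with other scalings, filters and omitted pools. The test was checked on simulated data. Tables and figures were made with Python 3.11.15. The members, the gene lists and the omission of Rbm47_IKO pool 3 and wt pool 2 were chosen with earlier results of these data known. The genes named are Rbm47, the members, genes of the lists and the 10 nearest genes. P-values measure the spread between pools, and no batch was given in the sources used here. All 6 pools differed from each other and all entered the test. Promoter windows were taken from RefSeq (GRCm38.p6).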

Additional observations from a re-analysis of the deposited data

How the results depend on the processing

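For the 10 genes, 0 were called under every alternative run (DESeq2 gave no adjusted p for Actg2), which covered DESeq2, limma-voom, RLE, upper quartile and library size scaling, 2 other filters, a robust fit, the pool number as a replicate block and the omission of pools. Scaling, filter and the robust fit changed no direction. The median log2 fold change of the 10, 0.436, was 0.984 with limma-voom and 1.26 with the replicate block, and that of Acta2, 0.326, was 1.3 and 1.66. The log2 fold change of Actg2 turned above 0 with limma-voom (0.894), with the replicate block (1.4), without Rbm47_IKO pool 1 (0.324), pool 2 (0.259) or wt pool 2 (2.94) and without both Rbm47_IKO pool 3 and wt pool 2 (1.09). With 1 pool left out in turn, it ranged from -1.99 to 2.94 for Actg2, -1.03 to 2.67 for Myh11, -1.09 to 3.02 for Acta2, -1.04 to 2.90 for Des, -1.15 to 2.84 for Cnn1, -1.08 to 2.76 for Tagln, -0.0116 to 1.10 for Mylk, -0.561 to 3.27 for Myl9, -0.64 to 2.36 for Synpo2 and -0.394 to 1.78 for Smtn. The lowest value of each came without Rbm47_IKO pool 3 and the highest without wt pool 2. The log2 ratio of the summed level, 0.486, ranged from -0.70 to 2.09 over the same omissions.

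The count of all genes called, 443, was 1243 with DESeq2, 100 with the replicate block and 0 to 431 with 1 pool left out. It was 0 without Rbm47_IKO pool 2, with 1729 genes at an unadjusted p under 0.05, 11 without wt pool 3, 32 without Rbm47_IKO pool 1 and 119 without Rbm47_IKO pool 3. With the mean log2 CPM of the 10 genes as a covariate, an alternative chosen after seeing the data, it was 672, and 433 of the 443 genes were among them. The causes were not tested. The correlation of deviations between pools of the same number was 0.408, -0.00258 and -0.277 for pools 1, 2 and 3, and the highest of any cross-label pair was 0.479, for Rbm47_IKO pool 3 and wt pool 2. The numbers were therefore not taken to pair the pools. The lowest count of any of the 10 genes was 126.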

Other observations

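Markers of the mesothelium, the outer lining of the gut, did not follow the order of the muscle genes, and the sum of 3 such markers ran over 11.5-fold. Upk3b, a membrane protein of that lining, had 1.127, 6.785 and 5.482 CPM in Rbm47_IKO pools 1 to 3 and 1.088, 6.798 and 0.3842 CPM in wt pools 1 to 3. Msln, mesothelin, had 0.8377, 4.33 and 3.308 CPM against 0.5588, 4.611 and 0.5488 CPM. The level in Rbm47_IKO pool 2 was close to that in wt pool 2 for both genes, although its summed level of the 10 muscle genes was 1194 CPM against 3955 CPM there. Neither gene passed the edgeR test (adjusted p = 0.821 for Upk3b and 0.846 for Msln).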
